A study of Mus musculus with 7 samples.

Results

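The genes described here encode the receptor for GM-CSF and the transcription factors that give lung alveolar macrophages their identity or let them self-renew. They are the receptor chains Csf2ra, Csf2rb and Csf2rb2 and the factors Pparg, Bhlhe40, Bhlhe41, Cebpb, Maf and Spi1. They were chosen by name, with earlier results of these data known. All 9 were found among the 47643 genes of the deposited expression table. Poly(A) RNA was sequenced from mouse lung macrophages sorted as positive for CD11c, F4/80 and SiglecF, in 7 libraries. Of these, 3 carried the conditional alleles labelled cSiah1a/2f/f with Lyz2cre, so that Siah1a and Siah2 are deleted by a Cre recombinase made from the lysozyme M locus, which is active across the myeloid lineage. A further library carried the same floxed alleles with CD11ccre, whose Cre is driven by the promoter of the CD11c gene (n = 1). The other 3 libraries were labelled WT, with no statement on Cre or on the floxed alleles. Age, sex and the number of animals per library are not given in the labels, so p-values measure the spread between these libraries, which may be technical. Siah1a and Siah2 encode ubiquitin ligases of the RING type. Lyz2cre against WT, and CD11ccre against WT, compare libraries with both genes deleted to libraries labelled WT. As the labels leave Cre open for WT, the deletion and the Cre line cannot be told apart. The CD11ccre library also differed from WT in Lyz2, as given below. Values are TPM, transcript abundances scaled to the same total in each library, which are comparable between genes per unit length but keep no record of sequencing depth, so the depth is unknown.

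GM-CSF, made mainly by the alveolar epithelium, binds a receptor of one ligand-specific alpha chain, encoded by Csf2ra, and a signalling beta chain that Csf2rb encodes and that the IL-3 and IL-5 receptors share. The receptor activates the kinase Jak2 and the factor Stat5, and in the developing alveolar macrophage it switches on Pparg, a nuclear receptor that drives the lipid-handling programme needed to clear surfactant. Mice carry a duplicate beta chain gene, Csf2rb2, whose product serves the IL-3 receptor. Spi1 encodes PU.1, the master factor of myeloid cells. Cebpb encodes C/EBP beta, and Bhlhe40 and Bhlhe41 encode paired repressors, all of them needed for normal alveolar macrophage numbers or self-renewal. Maf is kept low in alveolar macrophages, where a low level goes with the ability to self-renew.

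Both beta chain genes lie on chromosome 15 of mm10, Csf2rb at 78325752 to 78353847 on the plus strand and Csf2rb2 at 78282507 to 78305721 on the minus strand, with 20030 bases between them. Their coding sequences, of 2691 and 2637 bases, were identical at 95.2% of 2631 aligned bases, and the longest identical run was 242 bases. Over 75-base windows, the length of the reads, the copies differed at a median of 2 bases and at most 14, and 18.3% of the ungapped windows held no difference. Counted over all annotated transcripts, 7.15% of the 75-base words of Csf2rb and 10.6% of those of Csf2rb2 also occurred in the other copy, while none of the other 7 genes shared such a word with any gene. The Csf2rb and Csf2rb2 loci each also hold a microRNA gene on the same strand, and Pparg, Bhlhe40, Bhlhe41, Cebpb and Maf overlap a gene on the other strand. The library kit keeps the strand, but the strand setting of the quantification is not given in the sources used here, so reads of overlapping genes may not be told apart. Reads from the identical stretches of the beta chain genes cannot be assigned to one copy, so the split between the copies is uncertain and their sum is given too. The first pair of sequences is the first 75 coding bases, where the copies differ by the median number of bases, and the second pair is the window in which they differ most. Capitals mark the bases that differ.
Csf2rb, chr15:78335207-78335281, plus strand, exon 3: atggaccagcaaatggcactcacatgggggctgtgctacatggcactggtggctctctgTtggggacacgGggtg
Csf2rb2, chr15:78298155-78298229, minus strand, exon 2: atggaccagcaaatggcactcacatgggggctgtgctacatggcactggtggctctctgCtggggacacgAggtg
Csf2rb, chr15:78338905-78338979, plus strand, exon 5: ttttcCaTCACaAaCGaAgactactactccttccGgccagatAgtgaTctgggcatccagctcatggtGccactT
Csf2rb2, chr15:78294352-78294426, minus strand, exon 4: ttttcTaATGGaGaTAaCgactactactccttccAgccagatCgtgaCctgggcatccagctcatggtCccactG

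RefSeq promoter windows on GRCm38.p6 matched 5 of the 9 genes in 7 windows, and motifs were searched on both strands in the 250 bases before each start. Csf2rb, Bhlhe40, Maf and Spi1 had no window. The PU.1 core GAGGAA stood in 3 of the 7 windows, against 23.3% of all 32851 promoter windows. Csf2ra held it at 2 adjoining places, 14 and 8 bases before the start, Csf2rb2 held it once as its reverse complement, and 1 of the 3 Pparg windows held it once. The C/EBP motif TTGCNNAA stood in 1 of the 7 windows, in Pparg, against 9.56% of all windows. The E-box CACGTG, to which BHLHE40 and BHLHE41 bind, stood in 1 of the 7, in Bhlhe41 itself, against 6.02% of all windows. The direct repeat bound by PPAR stood in none of the 7 and in 0.0335% of all windows. The promoters of the receptor chains Csf2ra and Csf2rb2 are shown with the GAGGAA matches in capitals, since the gene of PU.1 is described beside them. These matches describe letters in the window and do not show binding.
Csf2ra, chr19:61228419-61228668, minus strand: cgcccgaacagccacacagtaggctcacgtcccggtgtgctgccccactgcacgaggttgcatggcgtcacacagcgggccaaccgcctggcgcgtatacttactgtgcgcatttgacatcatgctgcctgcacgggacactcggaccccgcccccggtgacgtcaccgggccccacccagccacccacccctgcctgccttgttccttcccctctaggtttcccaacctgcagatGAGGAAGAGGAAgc
Csf2rb2, chr15:78305722-78305971, minus strand: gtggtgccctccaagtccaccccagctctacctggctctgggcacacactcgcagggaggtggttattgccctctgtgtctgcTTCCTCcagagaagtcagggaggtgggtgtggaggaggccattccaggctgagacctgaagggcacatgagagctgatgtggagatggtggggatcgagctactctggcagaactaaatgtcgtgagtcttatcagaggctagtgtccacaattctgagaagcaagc

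The libraries differed in composition. Between 10883 and 11518 genes reached 1 TPM per library. Ferritin chains and Chil3 (Ftl1, Fth1 and Chil3 together) took 14.4% to 16.3% of the TPM in Lyz2cre, 14.0% in CD11ccre and 4.90% to 5.29% in WT, and mitochondrially encoded genes took 2.67% to 4.61%, 4.23% and 7.54% to 9.25% in the same order. TPM sum to a fixed total. The median log2 fold change of all 11397 genes tested was -0.16 in Lyz2cre against WT and -0.29 in CD11ccre against WT, and it was -0.00 and -0.01 with median-of-ratios scaling. The targets were low where deleted, with Siah2 at 1.45 to 1.95 TPM in Lyz2cre, 1.21 TPM in CD11ccre and 12.7 to 17.3 TPM in WT, and Siah1a at 0 to 0.05, 0 and 6.72 to 16.6 TPM. Lyz2, the Cre locus, stood at 46.6 to 61.9 TPM in Lyz2cre, 50676 TPM in CD11ccre and 72.6 to 86.3 TPM in WT, so the WT libraries shared the low level of the Lyz2cre libraries. Of the sort markers, Itgax (CD11c) and Adgre1 (F4/80) were present in every library, at 421 to 434 and 94.4 to 111 TPM in Lyz2cre, 541 and 93.3 TPM in CD11ccre, and 327 to 387 and 103 to 146 TPM in WT. Siglecf was present too, and fell to 84.5 TPM ± 20.8 in Lyz2cre, against 231 TPM ± 23.3 in WT (SD, n = 3 each, limma, adjusted p = 0.00746). Adjusted p-values here and in what follows are Benjamini-Hochberg values over the 11397 genes, with 0.05 as the threshold.

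Csf2rb was the member that rose. It stood at 349.9, 359 and 300.3 TPM in the Lyz2cre libraries, at 257 TPM in the CD11ccre library and at 198, 181 and 206 TPM in the WT libraries. Each Lyz2cre library was thus above each WT library, with the CD11ccre library between them. Its mean was 336 TPM ± 31.6 in Lyz2cre and 195 TPM ± 12.6 in WT (SD, n = 3 each), a 1.72-fold difference. In limma on log2(TPM + 1), the log2 fold change was 0.78 ± 0.11 (SE, adjusted p = 0.0110), and its 95% confidence interval ran from 0.52 to 1.04. Relative to the median of all genes the change was 0.94. The call was lost without WT replicate 2 (adjusted p = 0.0511), without Lyz2cre replicate 1 (0.0515) or without Lyz2cre replicate 2 (0.0504), with log2 fold changes of 0.73, 0.75 and 0.73. The adjusted p ran from 0.00360 to 0.0515 over the 18 alternatives. In CD11ccre against WT, which share the WT libraries with the first comparison, the log2 fold change of Csf2rb was 0.40 ± 0.16 (SE, adjusted p = 0.196). That test takes the spread of the single CD11ccre library to be that of the replicated groups. Csf2rb stayed uncalled there in all 17 alternatives, with an adjusted p of 0.0532 to 0.354.

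**Figure D1:**
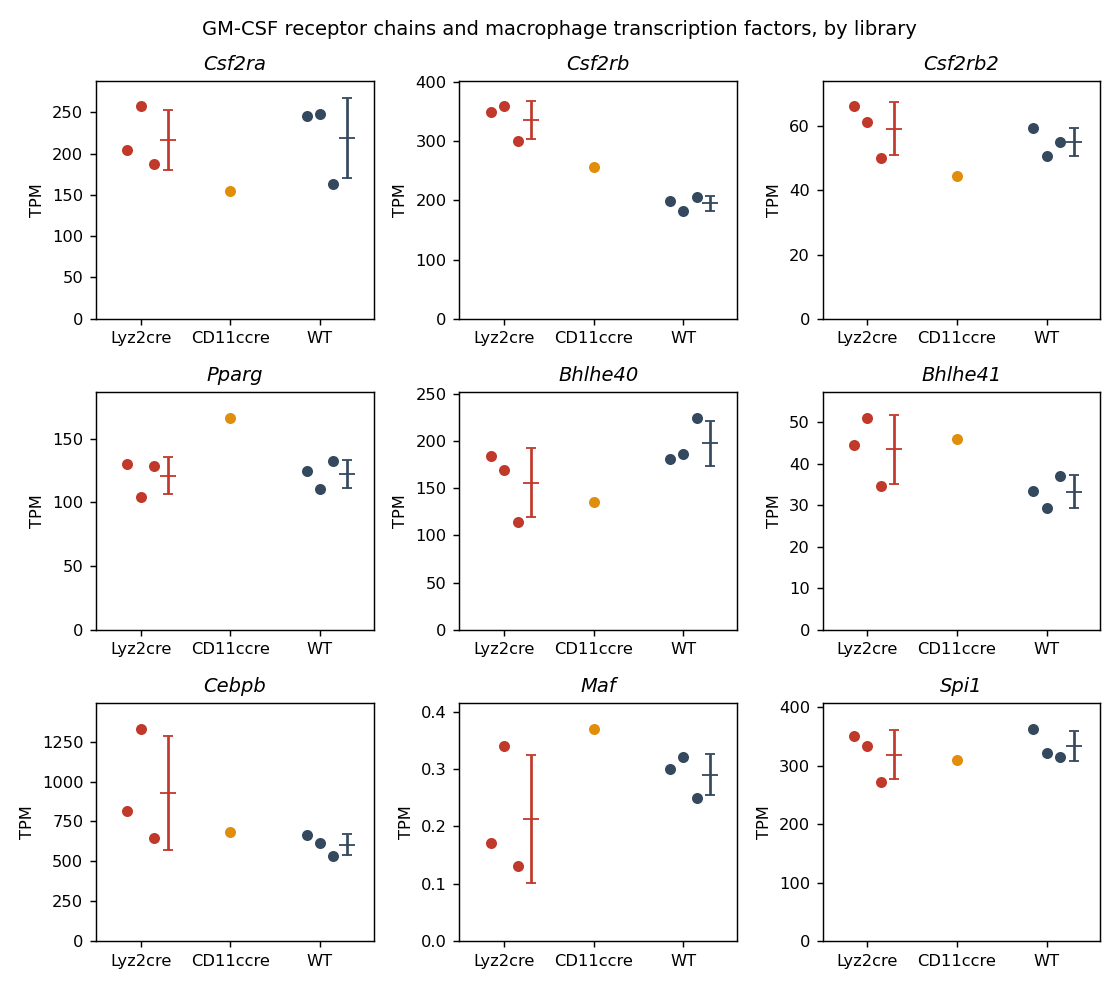
TPM of the 9 genes in each library (points), with the mean and SD of the 3 libraries of a group beside them (bars). Csf2rb lies higher in all 3 Lyz2cre libraries than in any WT library, while the Lyz2cre and WT libraries of the other genes overlap.

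Among the 8 members that reached a mean of 1 TPM and were tested, 1 rose, 0 fell and 7 were not called in Lyz2cre against WT, beside 6.76% of all genes tested called in either direction (2.17% higher and 4.60% lower). The 1 member whose libraries did not overlap, Csf2rb, stood beside 30.8% of all genes whose libraries did not overlap, 7.45% with every Lyz2cre library above every WT library and 23.3% with every one below. Median-of-ratios scaling left Csf2rb as the 1 member called, while over all genes the calls were 339 higher and 211 lower with it, against 247 higher and 524 lower as deposited. In CD11ccre against WT 0 of 8 members were called in limma, beside 2.89% of all genes called (0.895% higher and 1.99% lower). There 2 of the 8, Csf2rb and Pparg, had an unadjusted p under 0.05, as had 2540 of the 11397 genes tested. The CD11ccre library lay outside the WT range in all 8, beside 63.5% of all genes, as background. None of the 17 alternatives called a member in that comparison. Between CD11ccre and Lyz2cre 0 members were called in limma, beside 0.114% of all genes called (0.0439% higher and 0.0702% lower). Again 2 of the 8, Csf2rb and Pparg, had an unadjusted p under 0.05, as had 695 of the 11397 genes tested. The median log2 fold change over the 8 tested members was 0.05 in Lyz2cre against WT and 0.04 in CD11ccre against WT.

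**Figure D2:**
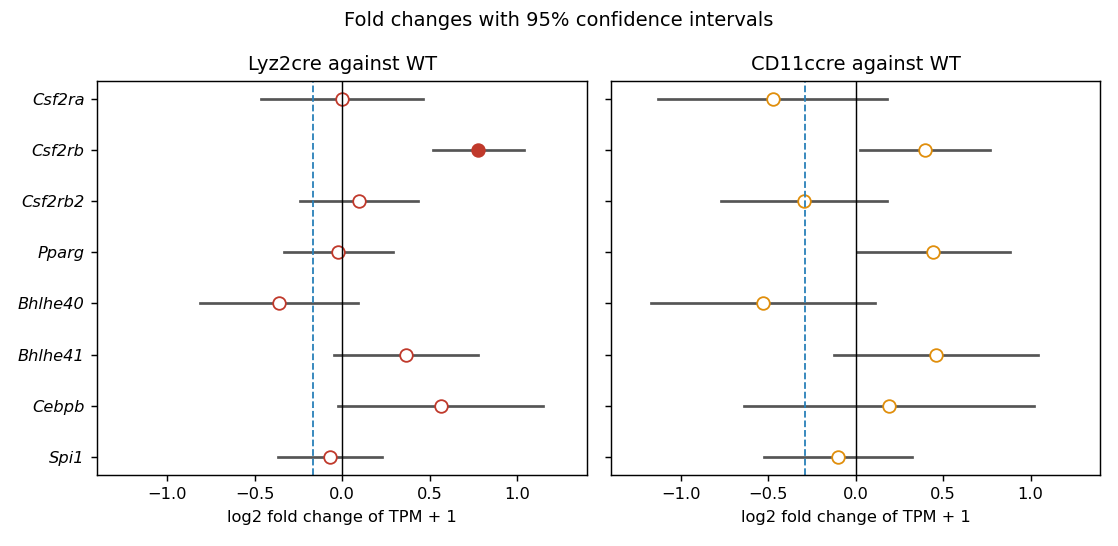
Log2 fold changes of TPM + 1 with 95% confidence intervals from limma for the 8 tested genes, in Lyz2cre against WT (left) and CD11ccre against WT (right). Filled circles passed an adjusted p of 0.05, and the dashed line is the median of all genes tested (-0.16 and -0.29). Only Csf2rb in Lyz2cre is filled.

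The duplicate Csf2rb2 did not pass the test. It stood at 66.2, 61.3 and 50.05 TPM in Lyz2cre, at 44.5 TPM in CD11ccre and at 59.4, 50.8 and 55.0 TPM in WT, and the Lyz2cre and WT values overlapped. The log2 fold change was 0.10 ± 0.14 (SE, adjusted p = 0.735) in Lyz2cre against WT, with an interval from -0.24 to 0.43, and -0.30 ± 0.20 (SE, adjusted p = 0.425) in CD11ccre against WT. The summed TPM of both beta chain genes, which depends less on how reads were split, was 416, 420.3 and 350.4 in Lyz2cre, 302 in CD11ccre and 258, 232 and 261 in WT. Its mean was 396 ± 39.2 in Lyz2cre and 250.2 ± 15.8 in WT (SD, n = 3 each), a 1.58-fold difference, with an exact two-sided permutation p of 0.1, the smallest that 3 against 3 libraries can give. Csf2rb2 made up 15.9%, 14.6% and 14.3% of that sum in Lyz2cre, 14.8% in CD11ccre and 23.0%, 21.9% and 21.1% in WT. The difference, Lyz2cre minus WT, was -7.08 percentage points, with 14.9% ± 0.861 in Lyz2cre and 22.00% ± 0.995 in WT (SD, n = 3 each, exact two-sided permutation p = 0.1). As a ratio within a library, this share does not change when all values of a library are multiplied by 1 factor. With quantile normalization, which is not such a scaling, the difference was -6.49 percentage points. The share does depend on how reads were split between the copies, which is uncertain. Every library with deleted Siah1a and Siah2 lay below every WT library in this share. As background, 23.3% of single genes tested had every Lyz2cre library below every WT library.

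Csf2ra, the ligand-binding alpha chain (chromosome 19, 61223957 to 61228429, minus strand), did not pass the test. It stood at 205, 257 and 188 TPM in Lyz2cre, at 154 TPM in CD11ccre and at 245, 248 and 163 TPM in WT. The Lyz2cre and WT libraries overlapped throughout, and the CD11ccre library was the lowest of the 7. The log2 fold change in Lyz2cre against WT was -0.00 ± 0.20 (SE, adjusted p = 1), with a 95% interval of 0.725- to 1.38-fold, and in CD11ccre against WT it was -0.47 ± 0.28 (SE, adjusted p = 0.360). Chosen after the values were seen, the ratio of Csf2rb to Csf2ra TPM was 1.71, 1.397 and 1.60 in Lyz2cre, 1.67 in CD11ccre and 0.810, 0.732 and 1.27 in WT. Csf2rb alone thus exceeded Csf2ra per length in all 3 Lyz2cre libraries, in the CD11ccre library and in 1 of the 3 WT libraries. The ratio of the summed beta chain TPM to Csf2ra, also chosen after the values were seen, was 2.03, 1.64 and 1.87 in Lyz2cre, 1.96 in CD11ccre and 1.05, 0.937 and 1.60 in WT, above 1 in 2 of the 3 WT libraries.

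**Figure D3:**
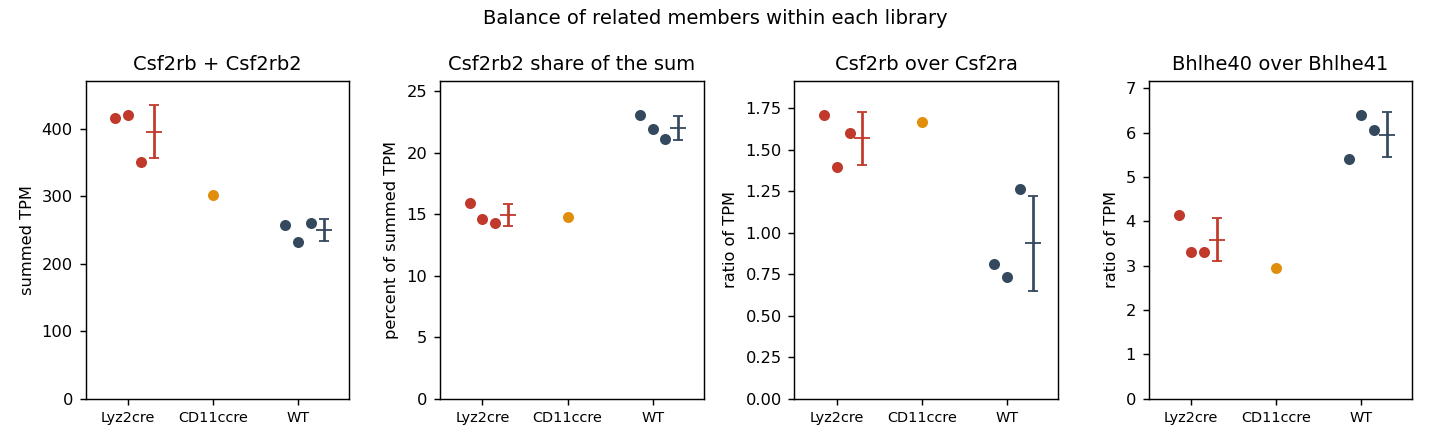
Quantities formed within each library (points), with the mean and SD of 3 libraries (bars): the summed TPM of Csf2rb and Csf2rb2, the percentage of that sum from Csf2rb2, and the TPM ratios of Csf2rb to Csf2ra and of Bhlhe40 to Bhlhe41. In each panel the 3 Lyz2cre libraries and the CD11ccre library lie on one side of the 3 WT libraries. The TPM ratios were chosen after the values were seen. All panels but the last contain Csf2rb, the member called, so the panels are not independent. As background, 30.8% of single genes tested did not overlap between Lyz2cre and WT.

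Pparg (chromosome 6, 115360951 to 115490399, plus strand) did not pass the test. Its level was 131, 104 and 128 TPM in Lyz2cre, 167 TPM in CD11ccre and 125, 111 and 132 TPM in WT, so that the CD11ccre library was the highest of the 7 and the other groups overlapped. The log2 fold change was -0.02 ± 0.13 (SE, adjusted p = 0.943) in Lyz2cre against WT, with a 95% interval of 0.795- to 1.22-fold. In CD11ccre against WT it was 0.44 ± 0.19 (SE, unadjusted p = 0.0478, adjusted p = 0.219 in limma), and against Lyz2cre it was 0.47 ± 0.19 (SE, adjusted p = 0.817). The sign of the small Lyz2cre difference turned with scaling, as it did for Csf2ra and Spi1.

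The paired repressors Bhlhe40 (chromosome 6, 108660629 to 108666925, plus strand) and Bhlhe41 (chromosome 6, 145858243 to 145865558, minus strand) had fold changes of opposite sign, and neither passed the test. Bhlhe40 stood at 185, 169 and 114 TPM in Lyz2cre, 136 TPM in CD11ccre and 181, 187 and 225 TPM in WT. Bhlhe41 stood at 44.6, 51.1 and 34.6 TPM in Lyz2cre, 45.9 TPM in CD11ccre and 33.4, 29.2 and 37.1 TPM in WT. For each gene the Lyz2cre and WT values overlapped, through 1 Lyz2cre library. Bhlhe40 had a log2 fold change of -0.36 ± 0.19 (SE, adjusted p = 0.298) in Lyz2cre against WT and of -0.53 ± 0.27 (SE, adjusted p = 0.300) in CD11ccre against WT. Bhlhe41 had 0.36 ± 0.18 (SE, adjusted p = 0.252) and 0.46 ± 0.25 (SE, adjusted p = 0.323) in the same comparisons. The ratio of Bhlhe40 to Bhlhe41 TPM, chosen after the values were seen, was 4.14, 3.31 and 3.30 in Lyz2cre, 2.96 in CD11ccre and 5.42, 6.40 and 6.06 in WT. The WT libraries did not overlap with the others in this ratio. As background, 30.8% of single genes did not overlap between Lyz2cre and WT, and 63.5% had the CD11ccre library outside the WT range. How often ratios of 2 genes separate the groups was not tested.

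Cebpb (chromosome 2, 167688915 to 167690418, plus strand) was the most abundant of the 9 genes in every library. Its level was 815, 1331 and 645 TPM in Lyz2cre, 685 TPM in CD11ccre and 661, 616 and 532 TPM in WT. Lyz2cre replicate 2 stood far above the rest and Lyz2cre replicate 3 lay inside the WT range. The means were 930.2 TPM ± 357 in Lyz2cre and 603 TPM ± 65.6 in WT (SD, n = 3 each), and the log2 fold change of 0.56 ± 0.25 did not pass limma (SE, adjusted p = 0.219). Spi1 (chromosome 2, 91082390 to 91115756, plus strand) did not pass the test either, at 350.4, 334 and 272 TPM in Lyz2cre, 310.2 TPM in CD11ccre and 363, 322 and 315 TPM in WT. Its log2 fold change was -0.07 ± 0.13 (SE, adjusted p = 0.788) in Lyz2cre against WT, with a 95% interval of 0.774- to 1.17-fold, and -0.10 ± 0.18 (SE, adjusted p = 0.779) in CD11ccre against WT. Maf (chromosome 8, 115682942 to 115707794, minus strand) lay below the mean of 1 TPM needed for the test, at 0.17, 0.34 and 0.13 TPM in Lyz2cre, 0.37 TPM in CD11ccre and 0.30, 0.32 and 0.25 TPM in WT.

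By level, Cebpb led in WT at 603 TPM, above 97.7% of the genes tested, followed by Spi1 at 333 TPM. Csf2ra (218.5 TPM ± 48.2), Bhlhe40 (198 TPM ± 23.9) and Csf2rb (195 TPM ± 12.6) came next and did not differ beyond their spread (SD, n = 3 each). Pparg followed at 123 TPM, Csf2rb2 at 55.1 TPM, Bhlhe41 at 33.2 TPM and Maf at 0.290 TPM. In Lyz2cre the order differed for Csf2rb, whose mean of 336 TPM ± 31.6 stood level with the 319 TPM ± 41.5 of Spi1 and above the 216 TPM ± 36.1 of Csf2ra and the 156 TPM ± 37.0 of Bhlhe40 (SD, n = 3 each).

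By the mean absolute difference of centred log2(TPM + 1) over the 7 libraries, the 2 genes nearest to Csf2rb among 7988 candidates were Ppip5k1, which encodes an inositol pyrophosphate kinase, at 0.07, and Osbpl11, an oxysterol-binding protein family member, at 0.08. The median candidate lay 0.46 away. Ppip5k1 stood at 10.9, 12.2 and 9.36 TPM in Lyz2cre, 8.39 TPM in CD11ccre and 6.70, 6.30 and 6.87 TPM in WT. Osbpl11 stood at 32.4, 31.2 and 30.3 TPM in Lyz2cre, 22.5 TPM in CD11ccre and 17.0, 18.1 and 19.6 TPM in WT.

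Of the other cytokine receptors and the Jak-Stat5 pathway, 31 of 33 listed genes were tested in Lyz2cre against WT. Of these, 2 rose, 3 fell and 26 were not called, beside 6.76% of all genes called (2.17% higher and 4.60% lower). The list median was -0.09, against -0.16 over all genes. Il3ra, the IL-3 receptor alpha chain that pairs with both beta chains, stood at 22.1, 28.8 and 22 TPM in Lyz2cre, 11.9 TPM in CD11ccre and 9.85, 9.99 and 10.5 TPM in WT. It rose 2.40-fold in Lyz2cre (log2 fold change 1.18 ± 0.16, SE, adjusted p = 0.00924) and passed the test in all 18 alternatives. The CD11ccre library stood close to WT in Il3ra, with a log2 fold change of 0.22 (adjusted p = 0.616) against WT and of -0.96 (adjusted p = 0.625) against Lyz2cre, so a difference between the Cre lines was not shown. Tgfbr2, a receptor for TGF-beta, which alveolar macrophages need for their development, was named after its values were seen and rose 1.47-fold to 161 TPM ± 9.03 in Lyz2cre, against 110 TPM ± 14.1 in WT (SD, n = 3 each, adjusted p = 0.0463). Its call held in 9 of 18 alternatives and was lost without WT replicates 1 or 2 or any 1 of the Lyz2cre replicates, each left out singly.

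The genes of that list that fell were Csf3r, the G-CSF receptor, Socs2, a Stat5-induced feedback inhibitor, and Pik3r1, a regulatory subunit of PI3 kinase. Csf3r fell to 8.38 TPM ± 2.87 in Lyz2cre, against 21.2 TPM ± 4.46 in WT (adjusted p = 0.0392), Socs2 to 22.3 TPM ± 1.87 in Lyz2cre, against 36.3 TPM ± 2.89 in WT (adjusted p = 0.0322), and Pik3r1 to 10.2 TPM ± 0.860 in Lyz2cre, against 17.6 TPM ± 2.22 in WT (SD, n = 3 each, adjusted p = 0.0417 in limma). Median-of-ratios scaling ended each of these calls (0.0568 for Csf3r, 0.0870 for Socs2 and 0.127 for Pik3r1), and so did leaving out any single Lyz2cre or WT library. Under median-of-ratios scaling 2 genes of the list thus rose and 0 fell, beside 339 higher and 211 lower among all 11397 genes tested. Socs2 and Csf3r also fell in CD11ccre against WT, which uses the same WT libraries, to 16.4 TPM (adjusted p = 0.0353) and 4.43 TPM (adjusted p = 0.0436), and there too 0 genes of the list fell with median-of-ratios scaling. The kinase and factors that carry the signal were not called, with Jak2 averaging 8.82 TPM in Lyz2cre and 9.44 TPM in WT (adjusted p = 0.813), Stat5a 15.5 TPM in Lyz2cre and 16.9 TPM in WT (adjusted p = 0.696) and Stat5b 12.0 TPM in Lyz2cre and 11.4 TPM in WT (adjusted p = 0.864). Another Stat5-induced inhibitor, Cish, averaged 16.6 TPM in Lyz2cre and 14.97 TPM in WT (adjusted p = 0.799). Among the 9 ligands listed 1 was tested, Tgfb1, which averaged 298 TPM in Lyz2cre and 311 TPM in WT (adjusted p = 0.772), while Csf2, the gene of GM-CSF itself, was listed at 0 in every library.

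**Figure D4:**
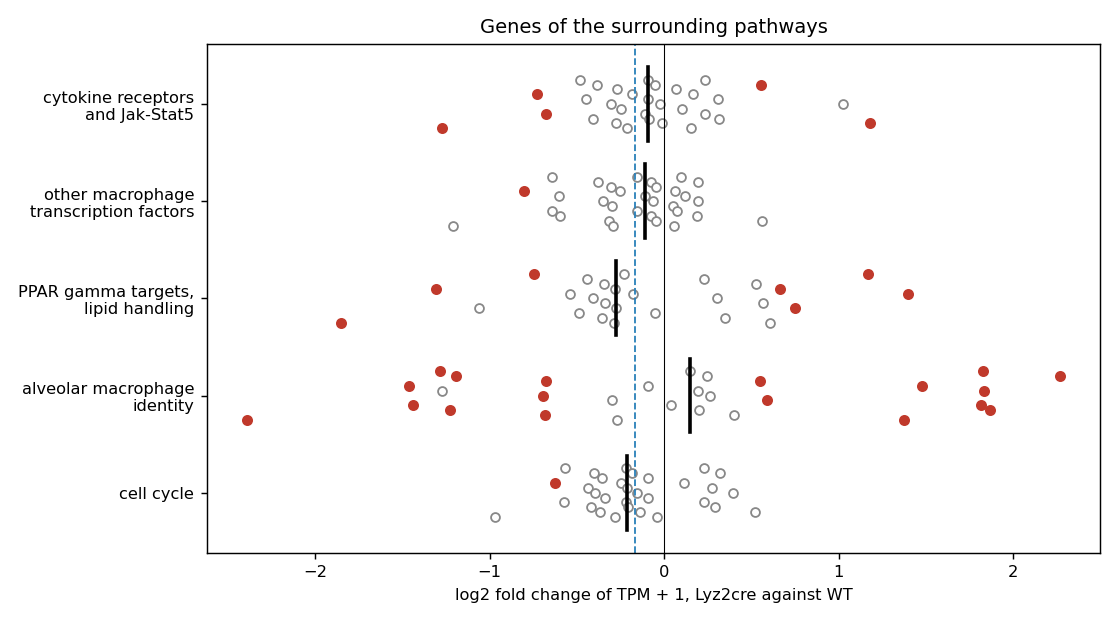
Log2 fold changes of TPM + 1 in Lyz2cre against WT for the tested genes of 5 lists, 1 circle per gene, filled where the adjusted p was under 0.05. Black bars are list medians and the dashed line is the median of all genes tested (-0.16). The cytokine receptor list had 2 higher and 3 lower of 31, the lipid handling list 4 and 3 of 27. The identity list had 9 higher and 9 lower of 29. The other macrophage transcription factors and the cell cycle list each had 0 higher and 1 lower of 31. Over all genes tested 6.76% were called.

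Of 31 other macrophage transcription factors tested, 0 rose, 1 fell and 30 were not called, beside 6.76% of all genes called. The list median was -0.11, against -0.16 over all genes. Ncor1, a nuclear receptor corepressor, fell 1.76-fold to 50.9 TPM ± 5.20 in Lyz2cre, against 89.8 TPM ± 11.8 in WT (SD, n = 3 each, adjusted p = 0.0217). Median-of-ratios scaling (0.0634) or the removal of any single Lyz2cre or WT library (0.0505 to 0.0800) ended this call. Cebpa, a relative of Cebpb, averaged 223 TPM in Lyz2cre, 209.6 TPM in CD11ccre and 195 TPM in WT (adjusted p = 0.372 for Lyz2cre). Rxra, the partner of Pparg on DNA, averaged 77.0, 66.5 and 81.7 TPM in the same order (adjusted p = 0.783 for Lyz2cre).

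Of 27 tested PPAR gamma targets and lipid handling genes 4 rose, 3 fell and 20 were not called in Lyz2cre against WT, beside 6.76% of all genes called. The list median was -0.28, against -0.16 over all genes. With median-of-ratios scaling 7 rose and 3 fell, beside 339 higher and 211 lower among all 11397 genes tested. In CD11ccre against WT 3 rose and 1 fell, beside 2.89% of all genes called. Fabp5, a fatty acid chaperone, rose 2.65-fold to 1837 TPM ± 223 in Lyz2cre, against 694 TPM ± 34.1 in WT (SD, n = 3 each, adjusted p = 0.00200), and Olr1, a receptor for oxidised lipoprotein, rose 2.23-fold to 194 TPM ± 11.3 in Lyz2cre, against 87.3 TPM ± 18.9 in WT (SD, n = 3 each, adjusted p = 0.00950), the Olr1 call ending without Lyz2cre replicate 3 (0.0536). Fabp1, another chaperone of that family, fell 3.55-fold to 229 TPM ± 57.6 in Lyz2cre, against 813 TPM ± 105 in WT (SD, n = 3 each, adjusted p = 0.00502). Cidec, a lipid droplet protein, fell 2.46-fold to 132 TPM ± 25.6 in Lyz2cre, against 325 TPM ± 29.3 in WT (SD, n = 3 each, adjusted p = 0.00726).

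The alveolar macrophage identity list had the most calls of the lists described here. Like the other lists it was chosen with earlier results of these data known, so its share of calls does not test enrichment. Of its 29 tested genes 9 were higher, 9 lower and 11 not called, beside 6.76% of all genes called (2.17% higher and 4.60% lower). With median-of-ratios scaling 9 were higher and 6 lower, beside 339 higher and 211 lower among all 11397 genes tested. The list median was 0.15, against -0.16 over all genes. In CD11ccre against WT 6 genes of the list rose and 5 fell, beside 2.89% of all genes called. Gpnmb, a lysosomal glycoprotein, rose 3.58-fold to 616 TPM ± 50.7 in Lyz2cre, against 172 TPM ± 13.2 in WT (SD, n = 3 each, adjusted p = 0.000780). Ctsk, a collagen-degrading protease, rose 4.72-fold to 3678 TPM ± 338 in Lyz2cre, against 779.8 TPM ± 197 in WT (SD, n = 3 each, adjusted p = 0.00228). Chil3, a chitinase-like secreted protein, rose 2.79-fold (adjusted p = 0.00221), but the call was lost with no filter on low values (0.148), and with quantile normalization its log2 fold change was -0.07 (0.740). Ear1, a ribonuclease of a family with near-identical copies, fell 5.10-fold to 501 TPM ± 142 in Lyz2cre, against 2554 TPM ± 145 in WT (SD, n = 3 each, adjusted p = 0.00228). In the cell cycle list 31 of 32 genes were tested, and 0 rose and 1 fell, beside 6.76% of all genes called. The gene that fell was Ccnd2, a G1 cyclin, at 62.5 TPM ± 5.52 in Lyz2cre and 96.9 TPM ± 9.49 in WT (SD, n = 3 each, adjusted p = 0.0339). Median-of-ratios scaling (0.115) or the removal of any single Lyz2cre or WT library ended the Ccnd2 call. The cell cycle list's median was -0.22. The proliferation marker Mki67 averaged 9.65 TPM in Lyz2cre and 12.6 TPM in WT (adjusted p = 0.279).

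In bulk libraries, fewer cells of a type and less RNA per cell cannot be told apart. Eosinophils, basophils and mast cells, whose receptors use the same beta chain, had 9 of 9 markers listed at 0 in all 7 libraries. The 6 monocyte markers summed to 1.27 to 2.51 TPM in Lyz2cre, 1.38 TPM in CD11ccre and 3.01 to 12.1 TPM in WT, with Fcnb at 0 throughout. For the 9 dendritic cell markers the sums were 5.88 to 11.04, 6.20 and 14.2 to 32.5 TPM in the same order. The 8 neutrophil markers summed to 125 to 168 TPM in Lyz2cre, 151 TPM in CD11ccre and 54.8 to 107 TPM in WT, with S100a8 the highest and Camp and Ngp at 0. Of the 5 neutrophil markers tested in Lyz2cre against WT, 1 rose and 1, Csf3r, fell, beside 6.76% of all genes called. Markers of interstitial macrophages summed to 1.95 to 10.9 TPM in Lyz2cre, 3.91 TPM in CD11ccre and 0.41 to 1.98 TPM in WT. T and NK cell markers summed to 0 to 2.08 TPM in Lyz2cre, 0.98 TPM in CD11ccre and 2.74 to 13.3 TPM in WT, and B and plasma cell markers to 0.42 to 2.76, 1.65 and 6.78 to 20.4 TPM in the same order. Those of fibroblasts and smooth muscle and of erythroid cells and platelets each stayed at or under 16.9 TPM in every library.

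Among lung structural cells, 5 alveolar type 1 cell markers summed to 47.1 to 57.4 TPM in Lyz2cre, 36.9 TPM in CD11ccre and 14.4 to 30.7 TPM in WT, with Pdpn the highest. The 6 endothelial markers summed to 88.1 to 127 TPM, 72.7 TPM and 30.2 to 59.9 TPM in the same order, of which Vwf was the highest and 5 stayed under 1 TPM in every library. Club and ciliated cell markers summed to 146 to 373 TPM in Lyz2cre, 314 TPM in CD11ccre and 382 to 552 TPM in WT, and alveolar type 2 cell markers to 77.7 to 96.5 TPM, 71.4 TPM and 87.8 to 94.0 TPM. In each Lyz2cre library the sums of the neutrophil, alveolar type 1 and endothelial markers were thus above, and those of the monocyte, dendritic, T and NK, B and plasma, and club and ciliated cell markers below, those of every WT library. As background, 7.45% of single genes tested had every Lyz2cre library above every WT library and 23.3% had every one below. Several lists were mostly too low to test, with 1 of 6 monocyte, 2 of 9 T and NK cell and 1 of 6 endothelial markers tested. The 8 alveolar macrophage markers, led by Chil3, summed to 58726 to 73838 TPM in Lyz2cre, 67044 TPM in CD11ccre and 22971 to 26560 TPM in WT. Most of that sum was Chil3 alone, which averaged 60484 TPM in Lyz2cre and 21684.5 TPM in WT. Of the 8 markers 4 rose and 1, Siglecf, fell in Lyz2cre against WT, beside 6.76% of all genes called. The part of these markers in the Csf2rb result was not tested.

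**Figure D5:**
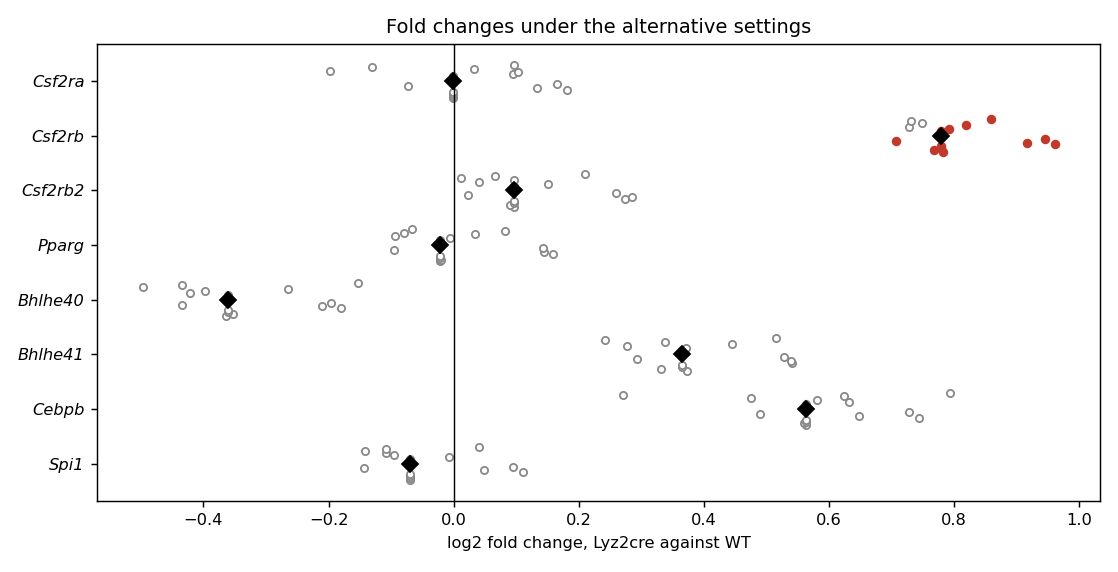
Log2 fold changes in Lyz2cre against WT for the 8 tested genes under 18 alternative settings (circles, filled where the adjusted p was under 0.05) and as reported (diamonds). Csf2rb stayed between 0.71 and 0.96, and Csf2ra, Pparg and Spi1 lay on both sides of 0.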

How the data were processed

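Per the submitters' processing notes, reads were handled with cutadapt 2.3, STAR 2.7.0d and RSEM 1.3.1 on mm10, and the authors deposited TPM per gene, whose sum is 1000000 in each library. The annotation release and the strand setting of the quantification were not given in the sources used here. Depth is unknown. No 2 libraries shared more than 1.79% of values. TPM were tested as log2(TPM + 1) for 11397 genes with mean TPM of at least 1, in limma 3.58.1 (R 4.3.3; 4 residual and 3.35 prior degrees of freedom; empirical Bayes with trend) over all 7 libraries, with Benjamini-Hochberg adjustment. SciPy 1.17.1 gave exact permutation tests, and Biopython 1.88 aligned the coding sequences. GENCODE M21 matched 47224 of 47643 gene IDs and gave transcripts and coordinates; promoter windows came from RefSeq. The fit was tested on simulated data. Beyond the 9 genes, up to 4 called genes per list with the smallest p and mean TPM of at least 5 are named, with the 2 genes nearest to each called member. One gene, and a list tied to it, are not reported here. Members and lists were chosen with earlier results of these data known. 18 alternatives were tried, covering pseudocount, filter, scaling, left-out genes, model and single libraries.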

Additional observations from a re-analysis of the deposited data

Results flagged for a closer look

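Lyz2, the lysozyme M gene that carries the Cre of the Lyz2cre line, differed between the Cre lines. It stood at 50676 TPM in the CD11ccre library and at 46.6, 61.9 and 55.7 TPM in the Lyz2cre libraries, a log2 fold change of 9.84 in the test of the difference itself (limma, adjusted p = 1e-06), against 77.6, 72.6 and 86.3 TPM in the WT libraries. The labels do not say whether WT libraries carry a Cre allele. Lyz2 is not among the 9 genes.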

How the results depend on the processing

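Csf2rb kept its direction in Lyz2cre against WT in all 18 alternatives and its call in 15, the 3 losses each leaving out 1 library, which also leaves fewer samples. The members called there numbered 0 to 1 when single libraries were left out. Bhlhe40, Bhlhe41 and Cebpb kept their direction and stayed uncalled in all 18, with log2 fold changes of -0.50 to -0.15, 0.24 to 0.54 and 0.27 to 0.79. Cebpb was at 0.27 without Lyz2cre replicate 2, Bhlhe41 at 0.24 without the same library and Bhlhe40 at -0.15 without Lyz2cre replicate 3. The summed beta chain TPM and the Csf2rb2 share kept their direction. As the Lyz2cre and WT libraries did not overlap in either, leaving out 1 library could not reverse them. Scaling by 1 factor per library cannot change the share. Small differences changed sign, and the cause was not tested. With median-of-ratios scaling, quantile normalization and Ftl1, Fth1, Chil3 and Lyz2 left out, the log2 fold change in Lyz2cre against WT was 0.18, 0.13 and 0.16 for Csf2ra, 0.16, 0.14 and 0.14 for Pparg and 0.11, 0.049 and 0.10 for Spi1. Leaving out single libraries gave -0.20 to 0.10 for Csf2ra, -0.093 to 0.082 for Pparg and -0.14 to 0.040 for Spi1. In CD11ccre against WT, Spi1 had 0.22, 0.073 and 0.13 under the same 3 settings, and Csf2rb2 had 0.015 and 0.022 with median-of-ratios scaling and quantile normalization. Chil3 had -0.073 with quantile normalization in Lyz2cre against WT.

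Over all genes, Lyz2cre against WT called 771 genes as reported, 342 without a filter on low values, 436 without the trend, and 203 to 441 when single libraries were left out. CD11ccre against WT called 329, and 201 with quantile normalization, 551 with mitochondrially encoded genes left out, 217 with Ftl1, Fth1, Chil3 and Lyz2 left out, 122 without the trend, and 23 to 170 when single libraries were left out. Median-of-ratios scaling gave 152 higher and 85 lower there, against 102 and 227. CD11ccre against Lyz2cre called 13, and 210 without a filter, and 1 to 17 when single libraries were left out.

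The labels do not state whether same-numbered libraries were paired, and the main fit used no replicate block. Deviations of same-numbered Lyz2cre and WT libraries correlated at -0.01, 0.04 and 0.07, and not every library correlated best with its own number. These correlations show no strong shared deviation and cannot show whether libraries were prepared together. With the replicate block, which leaves fewer residual degrees of freedom, 390 genes were called in Lyz2cre against WT, 21 in CD11ccre against WT and 3 in CD11ccre against Lyz2cre, and Csf2rb stayed called in Lyz2cre against WT. TPM keep no depth, so what counting error limits could not be given.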
